A study of Mus musculus with 18 samples.

Results

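The genes described here are the solute carrier (Slc) transporters that the array could measure in the kidneys of mice without adenine phosphoribosyltransferase (Aprt) and of their control littermates. They were taken as every probe set whose only gene symbol in the platform annotation is Slc, a number, the letter a and a number, with Slc12a1, Slc12a3, Slc16a7 and Slc4a1 left out. This gave 167 of the 12488 probe sets, which stand for 134 of the 8251 genes with a single symbol and for 39 Slc families. A gene counted as measured if its brightest probe set averaged at least 118.6 in signal over the 18 arrays, which is the 40th percentile on the whole array. By that filter 102 Slc genes of 35 families were measured, among 5744 genes in all, and 32 Slc genes were not. The nearest genes below the limit were Slc22a4 with a mean signal of 116.8 and Slc25a45 with 109.8, and the nearest above it were Slc30a1 with 124.0 and Slc27a3 with 132.5.

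Whole kidneys were taken from Aprt KO mice at 1 month (3 mice), control littermates at 1 month (3 mice), Aprt KO mice at 7 days (6 mice) and control littermates at 7 days (6 mice), all of the strain given as C57. The series text writes the genotypes as Aprt-/- and Aprt+/+ and calls the ages newborn and adult, where the sample labels say 7 days and 1 month. Each KO mouse has 1 control littermate of the same sex, which gives 9 litter pairs. At 1 month 2 pairs were male and 1 was female, and at 7 days 3 pairs were male and 3 female. Aprt returns adenine to the nucleotide pool, and without it adenine is turned into an insoluble product that forms stones in the kidney. How the Aprt allele was made is not given in the sources used here.

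Solute carriers move sugars, amino acids, organic and inorganic ions, metals, nucleosides and vitamins across membranes, each family with its own substrates. In the kidney most of what the glomerulus filters is taken back in the proximal tubule, where carriers of the apical brush border work in series with carriers of the basolateral side, driven by the sodium pump. The tubules of the mouse go on maturing after birth, and many of these carriers are known to rise in the weeks around weaning.

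The promoters below are shown because their genes carry the postnatal rise described below, 3 of them with a match to a word searched and the last with none. Each is the window of 250 bases before the gene's start from RefSeq (build GRCm38.p6), written 5′ to 3′ on the strand of the gene, and capitals mark a match to a word on either strand.
Slc34a1 (sodium-phosphate cotransporter, chr13:55399398-55399647, + strand): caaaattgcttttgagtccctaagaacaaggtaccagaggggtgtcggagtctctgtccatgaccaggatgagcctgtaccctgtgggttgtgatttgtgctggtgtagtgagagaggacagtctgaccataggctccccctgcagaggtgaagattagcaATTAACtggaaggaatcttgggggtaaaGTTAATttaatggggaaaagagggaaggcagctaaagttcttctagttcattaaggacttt
Slc22a6 (organic anion transporter, chr19:8617746-8617995, + strand): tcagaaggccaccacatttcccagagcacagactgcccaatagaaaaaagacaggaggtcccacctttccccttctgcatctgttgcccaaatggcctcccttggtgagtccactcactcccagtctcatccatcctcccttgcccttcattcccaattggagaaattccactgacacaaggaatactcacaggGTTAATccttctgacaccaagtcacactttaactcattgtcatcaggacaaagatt
Slc3a1 (subunit of the cystine transporter, chr17:85028097-85028346, + strand): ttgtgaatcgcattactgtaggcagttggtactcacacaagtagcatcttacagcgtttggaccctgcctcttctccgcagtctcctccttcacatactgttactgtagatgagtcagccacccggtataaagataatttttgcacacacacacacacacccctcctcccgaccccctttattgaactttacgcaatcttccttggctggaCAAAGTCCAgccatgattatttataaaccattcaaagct
Slc22a12 (urate transporter, chr19:6543071-6543320, - strand): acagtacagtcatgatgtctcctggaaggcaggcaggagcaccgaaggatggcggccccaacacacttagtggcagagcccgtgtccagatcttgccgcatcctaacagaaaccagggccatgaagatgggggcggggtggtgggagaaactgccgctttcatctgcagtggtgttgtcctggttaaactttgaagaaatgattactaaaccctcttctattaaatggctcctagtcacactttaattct
The words searched on both strands were the long word bound by HNF1 (GTTAAT, any base, then ATTAA), CAAAGTCCA, the type bound by HNF4, and GTTAAT alone, which was added after seeing the data. GTTAAT or its complement stands at -89 and -61 in the Slc34a1 window and at -56 in that of Slc22a6, and CAAAGTCCA at -39 in that of Slc3a1, counted to the first base of the match from the gene's start. A window was at hand for 109 of the 134 Slc genes, and for 40 of the 48 that rose with age in control kidneys. GTTAAT was present in 4 of those 40 windows (10%: Slc22a6, Slc34a1, Slc6a13 and Slc7a7), in 2 of the 34 windows of measured Slc genes that did not pass the test with age (5.88%), and in 7.49% of the 27025 windows of all genes. CAAAGTCCA was present in 1 of the 40 windows (2.5%), in 1 of the 34 (Slc30a3) and in 0.451% of all windows, and the long HNF1 word in none of the 40, against 0.074% of all. Words this short give few matches among 40 windows, and a match is a run of letters and not a measured binding site.

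The values are MAS5 signals, brightness values scaled by the depositors so that the trimmed mean of each array is the same, between 500.2 and 500.4 on the 18 arrays. A signal can be set against the signal of the same probe set on another array, but not against that of another gene. Array medians ran from 160.1 to 216.4. Kidney identity was plain from proximal tubule markers, with 10 of 12 measured and a summed signal from 31365 to 116090. The KO and control arrays of the fourth 7-day pair had a narrow range of signals, with a brightest probe set of 10167 in the KO mouse and 10767 in the control mouse, where the other 16 arrays reached 25718 to 51453. The Aprt probe set went against the label on 4 arrays, the 7-day controls of pairs 1 and 2, the 7-day KO of pair 4 and the 1-month KO of pair 1. That is, a KO signal lay above, or a control signal below, the midpoint of the 2 group medians at that age. The signals of the 4 were 66.3, 51.3, 135.4 and 86.5. Aprt was dim, at 41.9 to 148.2 over the 18 arrays. The 1-month KO of pair 1, at 86.5, still lay below the 3 controls at 1 month, which had 103.9 to 109.5. Every genotype result below is therefore one between arrays labelled Aprt KO and arrays labelled control, and the counts of called Slc genes are also given without those 4 arrays. In whole kidney, fewer cells of a type and less RNA in each cell cannot be told apart.

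The largest difference between the samples lay between the ages. In Aprt KO kidneys 47 of the 102 measured Slc genes were higher at 1 month than at 7 days and 12 were lower, by limma with a Benjamini-Hochberg adjusted p under 0.05 over all 5744 genes. In control kidneys 48 were higher and 12 lower. Over all genes, 15.4% were called higher and 26.1% lower in KO kidneys, and 15.1% higher and 27% lower in control kidneys, so that 41.5% and 42.1% were called in either direction. The Slc genes thus had a greater share of rises than all genes, 46.1% in KO and 47.1% in control kidneys, and a lesser share of falls, 11.8% in both. Their median log2 difference, 1 month minus 7 days on log2(signal + 29), was 0.35 in KO and 0.39 in control kidneys, against -0.12 and -0.11 over all genes. The groups did not overlap in 41 Slc genes that were higher and 11 that were lower at 1 month in KO mice (40.2% and 10.8%, against 13.4% and 22.1% of all genes). In control mice this held for 36 higher and 9 lower (35.3% and 8.82%, against 11.2% and 21%).

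Most of the changes were shared by the genotypes, in Slc genes as in all genes. Of the Slc genes that rose, 42 did so in both, which is 89.4% of the KO list and 87.5% of the control list, and 9 fell in both (75% of each list). Over all genes the shared rises were 81.7% of the KO list and 83.4% of the control list, and the shared falls 82% and 79.2%. No Slc gene was called in opposite directions. Slc12a2, Slc22a23, Slc23a3, Slc2a1, Slc30a4, Slc34a2, Slc3a2 and Slc7a8 were called in KO mice alone, and Slc12a4, Slc1a4, Slc23a2, Slc25a25, Slc25a44, Slc25a51, Slc44a2, Slc66a2 and Slc6a9 in control mice alone. A call in one genotype and not in the other is no test of a difference, and none of the 102 genes passed the test of that difference (0.4% of all genes did), as given further on. The age groups come from different mice, and any difference in how the 2 ages were collected or hybridised cannot be told apart from age.

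**Figure D1:**
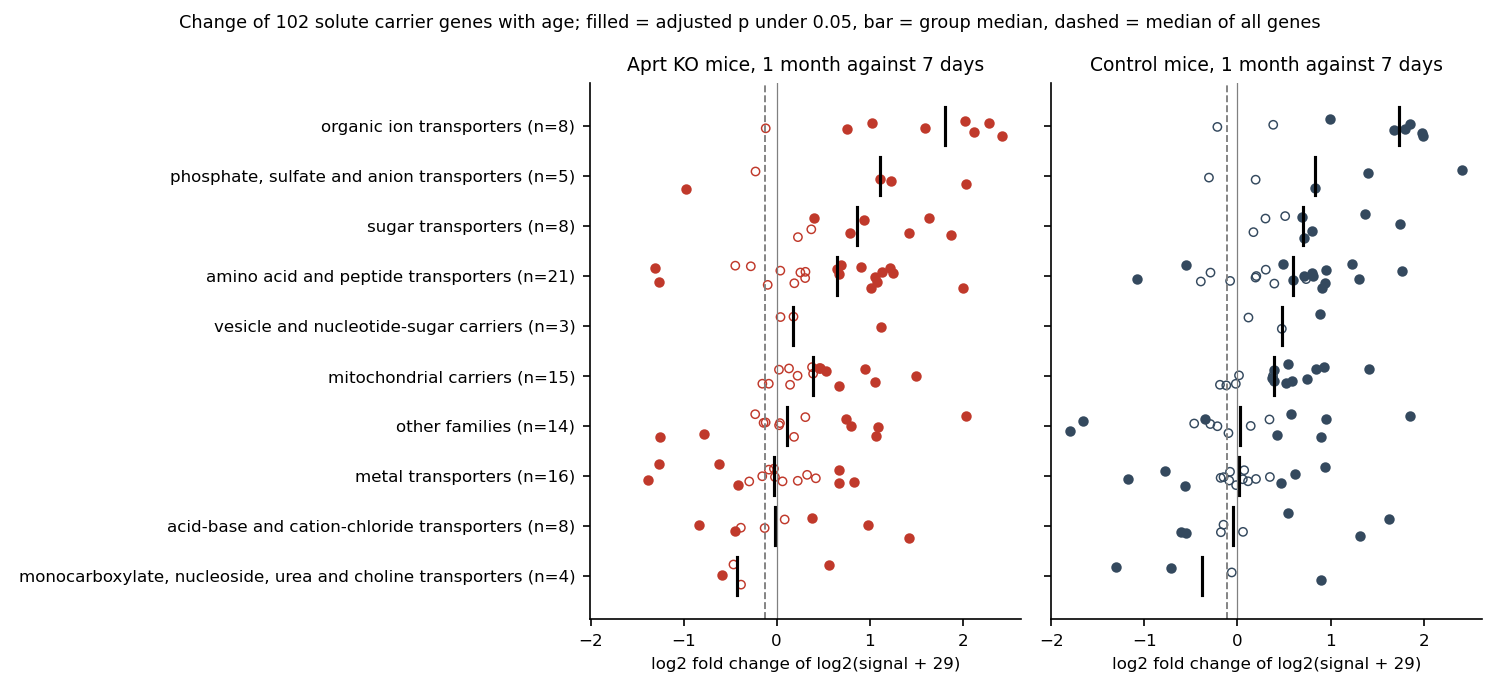
Log2 difference between 1 month and 7 days (x axis, log2 of signal + 29) for the 102 measured solute carriers, grouped by transport role (y axis), in Aprt KO mice (left panel) and control mice (right panel). Filled points passed limma at an adjusted p under 0.05, short bars are group medians and the dashed line is the median of all 5744 genes. Organic ion transporters lie farthest to the right, with group medians of 1.81 in KO and 1.74 in control mice.

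Among the 5 measured phosphate, sulfate and anion transporters, Slc34a1, Slc17a1 and Slc26a1 were higher at 1 month in both genotypes. Slc34a1 is the main sodium-phosphate cotransporter of the proximal tubule brush border, and its probe set is 101552_at. Its signal in 1-month KO kidneys was 14637, 12509 and 13508, the female first, against 4241 at the lowest, 6690.2 at the median and 7144 at the highest in 7-day KO kidneys. In control kidneys it was 15438, 11925 and 14674 at 1 month, against 6147 at the lowest, 8059 at the median and 8585 at the highest at 7 days. The ages did not overlap in either genotype, and the log2 difference was 1.11 (SE 0.15) in KO mice and 0.83 (SE 0.15) in control mice (adjusted p = 1.31e-05 and 0.000243).

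Slc26a1, a basolateral sulfate exchanger, had the largest rise of any Slc gene in control mice and the only one past 4-fold. It averaged 723 ± 294 at 1 month against 173 ± 105 at 7 days in KO kidneys, and 792 ± 275 against 139 ± 82.2 in control kidneys (SD, n = 3 at 1 month and 6 at 7 days). Its log2 difference was 2.04 (SE 0.40) in KO and 2.41 (SE 0.40) in control mice. Slc17a1, an anion and phosphate carrier of the apical side, rose by a log2 difference of 1.23 and 1.41. Slc20a1, the phosphate carrier found in most cells, did not pass the test in either genotype (log2 difference -0.23 in KO and 0.20 in control mice). Slc34a2, the phosphate cotransporter best known from gut and lung, fell by 0.97 on the log2 scale in KO mice (adjusted p = 0.0051), and in control mice its difference of -0.31 did not pass (adjusted p = 0.366).

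The organic ion transporters of family Slc22 were the role group with the largest rise. Of 8 measured members 7 rose in KO and 6 in control kidneys and none fell, with a median log2 difference of 1.81 and 1.74. Slc22a6 and Slc22a2 bring organic anions and organic cations into proximal tubule cells from the blood, and Slc22a12 takes urate back from the urine. Slc22a12 (102429_at) had signals of 8509, 9545 and 7037 in 1-month KO kidneys, against 1437 at the lowest, 1917 at the median and 2219.8 at the highest in 7-day KO kidneys. In control kidneys it had 6266, 9284 and 6515 at 1 month, against 1781 at the lowest, 2268 at the median and 2745 at the highest at 7 days. All 6 kidneys at 1 month lay above all 12 at 7 days, with log2 differences of 2.12 (SE 0.16) in KO and 1.68 (SE 0.16) in control mice.

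Slc22a6 (97431_at) had signals of 3357, 5414 and 4392 in 1-month KO kidneys, against 821 to 1710.0 in 7-day KO kidneys. Its control kidneys had 3307, 6955 and 5025 at 1 month, against 828 to 1778 at 7 days, and its log2 difference was 1.59 in KO and 1.85 in control mice. The ages did not overlap, while the 1-month kidneys spread widely. Slc22a2 rose by log2 differences of 2.28 in KO and 1.98 in control mice, and Slc22a18, an imprinted gene whose substrates are poorly defined, by 2.42 and 1.99. Slc22a5, the carnitine transporter, rose by about the same amount in both, 1.02 in KO and 0.99 in control mice. Slc22a30 also passed the test with age (2.02 and 1.80), but its 1-month signals depend on sex and the call was lost where sex was left out of the fit, so its values are given with the sexes. Slc22a23, a family member with no settled substrate, rose in KO mice (0.76, adjusted p = 0.0017) and had a difference of 0.38 in control mice (adjusted p = 0.0826). Slc22a17, reported as a receptor for lipocalin, was the member that passed in neither (-0.12 and -0.22).

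**Figure D2:**
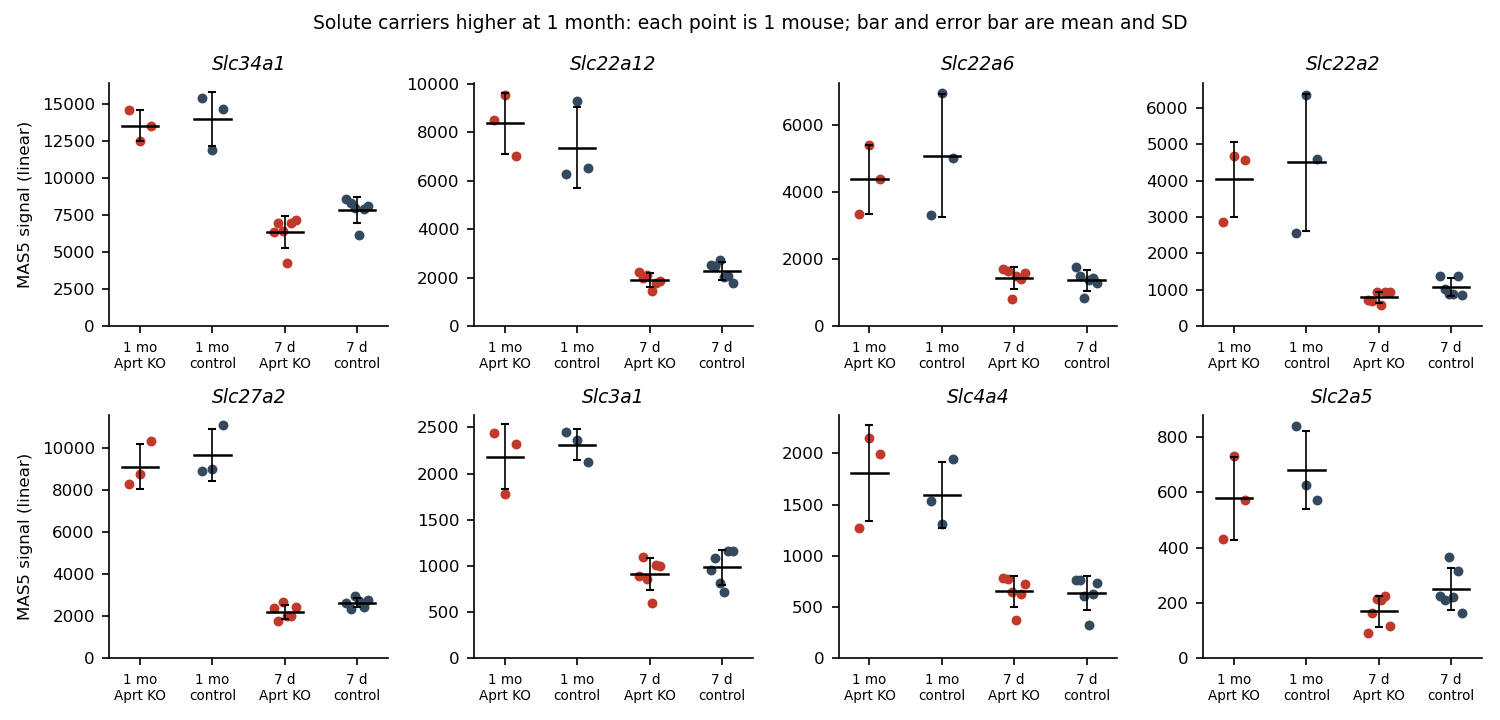
MAS5 signal on a linear axis from 0 for 8 solute carriers in the 4 groups, with 1 point per mouse and bars at the mean and SD (n = 3 at 1 month, 6 at 7 days). In each panel the 1-month Aprt KO and control mice lie above the 7-day mice of the same genotype, as for Slc34a1 at 12509 or more against 7144 or less in KO mice.

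Of the 8 sugar transporters of families Slc2 and Slc5, 6 rose in KO and 5 in control kidneys and none fell. Slc2a5, the fructose transporter, had 431, 732 and 573 in 1-month KO kidneys, against 91.7 at the lowest, 188 at the median and 224 at the highest in 7-day KO kidneys. In control kidneys it had 841, 627 and 574 at 1 month, against 164 at the lowest, 223 at the median and 364 at the highest at 7 days. No kidney at 7 days reached the lowest at 1 month, and the log2 difference was 1.63 (SE 0.22) in KO and 1.37 (SE 0.22) in control mice.

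Slc2a2, through which glucose leaves the proximal tubule cell, rose by 0.93 in KO and 0.71 in control mice, and Slc5a1, the sodium-glucose cotransporter of the late proximal tubule, by 0.40 and 0.70. Slc5a11, a sodium-inositol cotransporter, rose more, by 1.87 and 1.75. Its signals at 7 days were dim, 72 ± 46.7 in KO and 71.8 ± 19.6 in control kidneys (SD, n = 6 each). It passed the filter through its 1-month signals, 239 to 469. Slc2a4, the insulin-responsive glucose transporter, rose by 1.42 in KO and 0.80 in control mice. Slc2a1, a widely expressed glucose transporter, passed in KO mice (0.79, adjusted p = 0.00656) and not in control mice (0.51, adjusted p = 0.0644). Slc2a8 and Slc5a6, the vitamin carrier of the same family, passed in neither.

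The 21 measured amino acid and peptide transporters held 11 rises and 2 falls in each genotype. Slc3a1 and Slc7a9 are the heavy and light chains of the apical transporter that takes back cystine. Slc3a1 (93304_at) had 2442, 1783 and 2324 in 1-month KO kidneys against 601 to 1096 in 7-day KO kidneys. Its control signals were 2448, 2359.7 and 2123 at 1 month against 721 to 1165 at 7 days. The 2 chains rose by like amounts, Slc3a1 by log2 differences of 1.25 (SE 0.17) in KO and 1.23 (SE 0.17) in control mice, and Slc7a9 by 1.13 (SE 0.15) and 0.94 (SE 0.15). On the basolateral side, Slc3a2 is the heavy chain that pairs with Slc7a7 and Slc7a8. Slc7a7 rose by 1.21 in KO and 0.95 in control mice. Slc3a2 rose by 0.65 and Slc7a8 by 0.90 in KO mice, and in control mice their differences of 0.30 and 0.19 did not pass (adjusted p = 0.0843 and 0.441).

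Slc1a1, the glutamate transporter of the brush border, had the largest rise of this group, with signals of 925, 958 and 1287 in 1-month KO kidneys against 183 to 327 in 7-day KO kidneys. Its control kidneys had 888, 1146 and 1783 at 1 month against 276 to 451 at 7 days, and its log2 difference was 2.0 in KO and 1.76 in control mice. Slc6a18, a neutral amino acid transporter of the kidney, rose by 1.06 and 1.30. Slc15a2, which takes up small peptides, rose by 1.08 and 0.80, and the creatine transporter Slc6a8 by 1.01 and 0.71. The taurine transporter Slc6a6 rose by 0.67 in KO and 0.91 in control mice, and Slc6a13, of the same family, by 0.69 and 0.59. Slc1a4, a carrier of alanine, serine and cysteine, rose in control mice (0.81, adjusted p = 0.000266) and not by the test in KO mice (0.25, adjusted p = 0.189).

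The 2 falls among amino acid transporters were Slc38a2 and Slc38a4, both sodium-coupled carriers of small neutral amino acids. Slc38a2 had 517, 458 and 437 in 1-month KO kidneys, against 915 at the lowest, 1236 at the median and 1541 at the highest in 7-day KO kidneys. In control kidneys it had 485, 309 and 547 at 1 month, against 585 at the lowest, 978 at the median and 1403 at the highest at 7 days. Its log2 difference was -1.31 (SE 0.22) in KO and -1.08 (SE 0.22) in control mice. Slc38a4, an imprinted gene, had log2 differences of -1.26 (SE 0.20) and -0.56 (SE 0.20), and its control call was lost with the litter pair as a random effect (adjusted p = 0.0508), without the sex term and where arrays were scaled otherwise. Slc7a5, the carrier of large neutral amino acids found in growing cells, had -0.44 and -0.39 and passed in neither (adjusted p = 0.0507 and 0.0816).

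Acid-base and cation-chloride carriers moved both ways, with 3 of 8 higher and 2 of 8 lower in each genotype. Slc4a4, through which bicarbonate leaves the proximal tubule cell toward the blood, had 1272, 2147 and 1998 in 1-month KO kidneys against 373 at the lowest, 685 at the median and 787 at the highest in 7-day KO kidneys. In control kidneys it had 1534, 1306 and 1942 at 1 month against 321 at the lowest, 685 at the median and 767 at the highest at 7 days. Its log2 difference was 1.43 (SE 0.25) in KO and 1.32 (SE 0.25) in control mice, and the ages did not overlap. Slc9a8, a sodium-proton exchanger, rose by 0.98 and 1.63, and the potassium-chloride cotransporter Slc12a7 by 0.38 and 0.54. Slc4a3, a chloride-bicarbonate exchanger, fell in both (-0.83 and -0.61). The sodium-potassium-chloride cotransporter Slc12a2 fell in KO mice (-0.44), with -0.15 in control mice (adjusted p = 0.469). Slc12a4, the widely expressed potassium-chloride cotransporter, fell in control mice (-0.55), with -0.38 in KO mice (adjusted p = 0.0519). Slc4a2 and Slc8a1 passed in neither.

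Metal transporters formed a mixed group of 16 in which 3 rose and 4 fell in KO kidneys and 3 rose and 3 fell in control kidneys. The copper importer Slc31a1 had 3678, 4178 and 4522 in 1-month KO kidneys against 2108 to 2397 in 7-day KO kidneys, and 3368, 4043 and 5578 in 1-month control kidneys against 1945 to 2489 in 7-day control kidneys. It rose by 0.84 (SE 0.11) in KO and 0.94 (SE 0.11) in control mice, with no overlap. Its second probe set, which also passes the filter, had a log2 difference of 0.24 in control mice. There its ages overlapped, at 1188 to 1485 at 1 month against 1023 to 1529 at 7 days. They overlapped in KO mice too, at 1141 to 1522 against 952 to 1329. Slc39a8, an importer of zinc and manganese, rose by 0.67 and 0.47, and Slc30a9 by 0.67 and 0.62. The zinc importer Slc39a6 fell, with 94.6, 80.0 and 95.3 in 1-month KO kidneys against 192 at the lowest, 220.1 at the median and 400.0 at the highest in 7-day KO kidneys, and log2 differences of -1.26 in KO and -1.18 in control mice. Slc39a7, which releases zinc from intracellular stores, fell with log2 differences of -0.62 and -0.56. Slc30a4, a zinc exporter, fell in KO mice alone by the test (-0.42, with -0.08 and adjusted p = 0.678 in control mice). Slc11a1, the metal transporter of phagocytes, had log2 differences of -1.38 in KO and -0.78 in control mice, and its control call was lost with the litter pair as a random effect (adjusted p = 0.0654), under other scalings and in males alone. The summed signal of the 9 myeloid markers on the array, 7 of them measured, was 2841 to 3796 in 1-month KO kidneys. In 7-day KO kidneys it was 6168 to 10621. In control kidneys it was 2156 to 2806 at 1 month against 2166 to 3617 at 7 days. Its part in the Slc11a1 result was not tested.

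Of 15 mitochondrial carriers of family Slc25, 7 rose in KO and 10 in control kidneys and none fell. Slc25a15, the ornithine carrier, had the largest rise, with 3799, 4357 and 4360.0 in 1-month KO kidneys against 1191 to 1975 in 7-day KO kidneys. In control kidneys it had 3139, 5373 and 5094 at 1 month against 1265 to 2267 at 7 days, and it rose by 1.49 (SE 0.17) in KO and 1.41 (SE 0.17) in control mice. Slc25a39, which brings glutathione into mitochondria, rose by 0.95 and 0.93, and Slc25a10, the dicarboxylate carrier, by 1.05 and 0.84. Of the ADP/ATP carriers, Slc25a5 rose by 0.67 and 0.75, and Slc25a4 had -0.15 and -0.12 and passed in neither (adjusted p = 0.381 and 0.503). The suffix of the Slc25a5 probe set, 100618_f_at, marks probes that near-identical sequences share, so its signal may hold RNA of related genes. Slc25a11, Slc25a28 and Slc25a36, carriers of oxoglutarate, iron and pyrimidine nucleotides, rose in both genotypes by 0.46 to 0.53 in KO and 0.37 to 0.59 in control mice.

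Slc29a1, the equilibrative nucleoside transporter, was the largest fall among nucleoside and choline carriers. Its signals were 562, 369 and 451 in 1-month KO kidneys, against 580.4 at the lowest, 715 at the median and 791 at the highest in 7-day KO kidneys. In control kidneys they were 388, 217 and 314 at 1 month, against 499.6 at the lowest, 843 at the median and 967 at the highest at 7 days. The log2 difference was -0.59 (SE 0.17) in KO and -1.30 (SE 0.17) in control mice, and neither passed where the gene's probe sets were averaged (-0.29 and -0.30). Choline-like transporter Slc44a4 rose by 0.57 and 0.89, and Slc44a2 fell in control mice (-0.71), with -0.38 in KO mice (adjusted p = 0.1).

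Among the other families, Slc27a2, which activates fatty acids in the proximal tubule, had the smallest p of all Slc genes. Its signals were 8316, 8758 and 10329 in 1-month KO kidneys, against 1769 at the lowest, 2202 at the median and 2670.0 at the highest in 7-day KO kidneys, and 8916, 8997 and 11111 in 1-month control kidneys, against 2360.5 at the lowest, 2687 at the median and 2964 at the highest in 7-day control kidneys. Its log2 difference was 2.04 (SE 0.13) in KO and 1.85 (SE 0.13) in control mice (adjusted p = 1.16e-09 and 3.46e-09). Slc27a3, an acyl-CoA synthetase of the same family, went the other way by -1.26 and -1.66. Its 1-month signals, 20.3 to 98.5, all lay below the filter limit of 118.6, so it passed the filter only through its 7-day signals. The same held for Slc10a1, Slc11a1 and Slc39a6, which fell too. The folate carriers Slc46a1 and Slc19a1 rose by 1.09 and 0.80 in KO mice and 0.90 and 0.58 in control mice (0.20 for Slc19a1 in control males alone, adjusted p = 0.369), and the vitamin C transporter Slc23a1 by 1.07 and 0.95. Slc37a4, which brings glucose 6-phosphate into the endoplasmic reticulum for glucose release, rose by 1.12 and 0.89. Slc10a1, known as the bile acid importer of hepatocytes, was dim and fell, with 101, 63.4 and 68.3 in 1-month KO kidneys against 96.1 to 191 in 7-day KO kidneys, and 76.9, 58.2 and 26.4 in 1-month control kidneys against 204 to 289.9 in 7-day control kidneys.

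**Figure D3:**
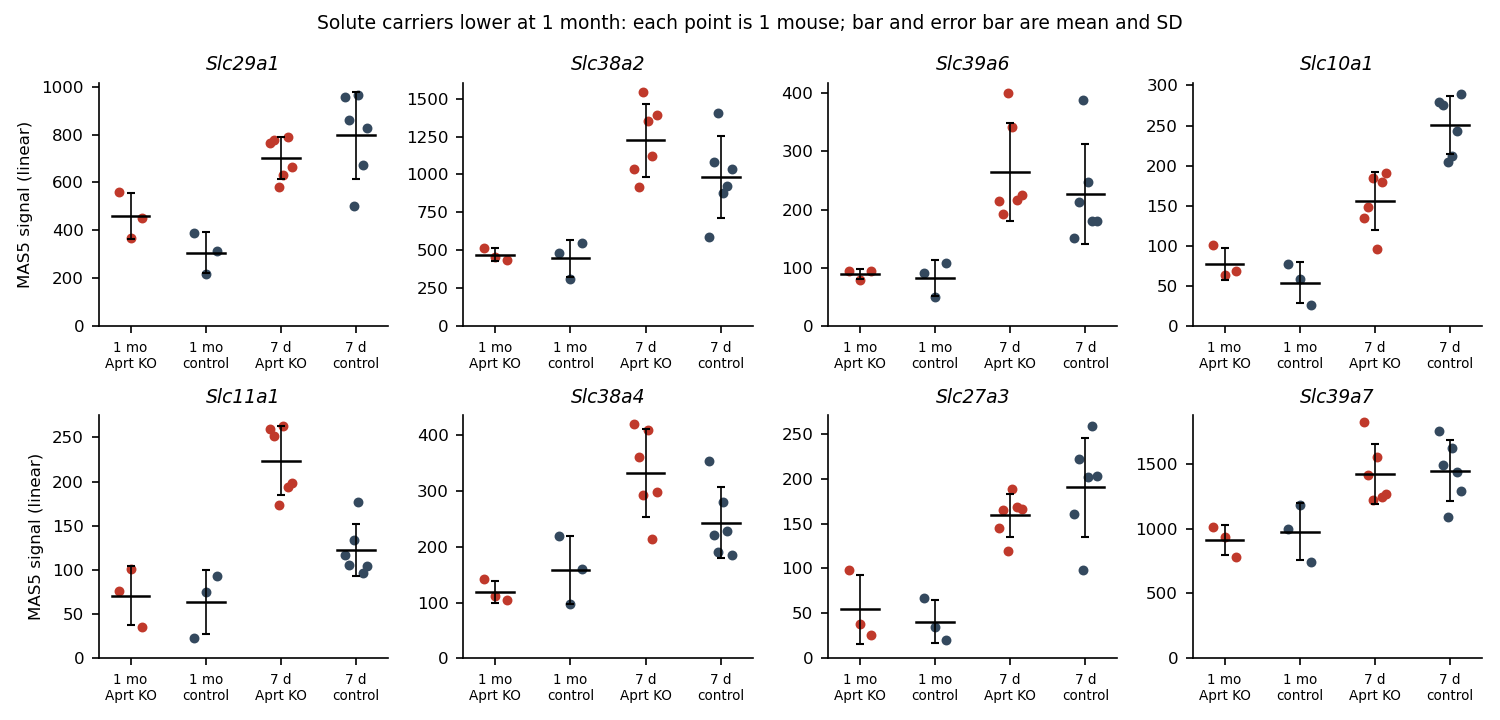
MAS5 signal on a linear axis from 0 for 8 solute carriers that were lower at 1 month in control mice, in the 4 groups, with 1 point per mouse and bars at the mean and SD (n = 3 at 1 month, 6 at 7 days). Slc29a1 shows the 1-month control mice, at 217 to 388, below the 7-day control mice, at 499.6 to 967.

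Partner genes of these carriers, such as the sodium pump, scaffolds, carbonic anhydrases, channels and ABC transporters, moved the same way. Of 18 measured genes of a list of 27, 15 rose in KO and 14 in control kidneys and none fell, with median log2 differences of 0.99 and 0.67. Over all genes 15.4% rose in KO and 15.1% in control kidneys. The partner list and the list of proximal tubule markers used below have Aqp1, Lrp2, Cubn and Ggt1 in common. The carbonic anhydrase Car14 rose by 2.25 in KO and 1.73 in control mice, the efflux pump Abcc2 by 1.88 in both, and Pdzk1, a scaffold that holds apical carriers, by 0.87 and 0.71. Cell markers moved with age too. The summed signal of 10 proximal tubule markers had a median of 104878 in 1-month KO kidneys against 51985 in 7-day KO kidneys, and 110981 against 63287 in control kidneys. That of 6 fibroblast markers was 7116 to 9068 in 1-month KO kidneys against 23370.5 to 28576 in 7-day KO kidneys, and 3335 to 4178 against 20077 to 27089 in control kidneys. Their part in the Slc results was not tested. Array scaling decided how many genes fell. With arrays scaled to a common median the median of all genes with age moved up by 0.231 in KO and 0.22 in control mice. There 57 Slc genes rose and 8 fell in KO and 58 rose and 6 fell in control mice. The rises were 55.9% and 56.9% of Slc genes, against 25.3% and 25.1% of all genes. The control calls of Slc11a1, Slc12a4, Slc23a2, Slc38a4, Slc39a7 and Slc4a3, all falls, were lost under that scaling, as were the KO calls of Slc12a2, Slc29a1 and Slc39a7, also falls. The Slc median lay above that of all genes by 0.474 in KO and 0.498 in control mice in the scaling as deposited, and by 0.478 and 0.509 with a common median. Without the 4 arrays whose Aprt signal went against the label, 43 Slc genes rose and 8 fell in KO and 41 rose and 8 fell in control mice. With any 1 array left out the genes that passed numbered 52 to 61 in KO and 48 to 61 in control mice.

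The comparison between the genotypes gave far fewer differences. At 7 days none of the 102 measured Slc genes passed limma between KO and control kidneys, where 3.22% of all genes did (2.54% higher and 0.679% lower). At an unadjusted p under 0.05 there were 22 Slc genes, among 613 of all genes. The median log2 difference, KO minus control, was -0.06 over the Slc genes and -0.02 over all genes, and 40 of the 102 lay above 0. The KO and control groups did not overlap in 2 Slc genes, Slc10a1 and Slc6a15, both lower in KO kidneys (1.96%, against 0.592% of all genes), and in none that was higher (against 2.05%).

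With the litter pair as a block, which takes each KO kidney against its own littermate, 16 Slc genes passed, 3 higher and 13 lower in KO kidneys (2.94% and 12.7%). Over all genes that fit called 8.7%, 4.84% higher and 3.86% lower. In 16 Slc genes the KO kidney was lower than its littermate in all 6 pairs (15.7%, against 8.04% of all genes) and in 4 it was higher in all 6 (3.92%, against 7.66%). The 16 called genes moved one way in 6 of 6 pairs each, with log2 differences from -0.20 to -0.72 among the lower and from 0.54 to 1.06 among the higher. The block lowered the standard error and not the size of the difference, as for Slc34a1 with -0.32 and a standard error of 0.05 with the block and 0.12 without.

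Without the 4 arrays whose Aprt signal went against the label, 3 whole 7-day pairs remained, and none of the 16 passed, with adjusted p from 0.0877 to 0.553 and every sign kept. Some log2 differences were about as large with these fewer arrays, as for Slc22a30 (-0.67), Slc22a17 (-0.30) and Slc6a2 (0.99), and those of Slc10a1 (-0.35) and Slc37a4 (-0.22) were more than 1.5 times smaller. There the block called 1 Slc gene, Slc25a5 (-0.39, adjusted p = 0.0492), and the fit without the block called 1 other, Slc2a5 (-0.71, adjusted p = 0.0193). With any 1 litter pair left out, the block called 11 to 18 Slc genes, where it called 347 to 521 of all genes. The 11 were without 7-day pair 1 or without pair 2, and 11 to 15 of the 16 were among those called.

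**Figure D4:**
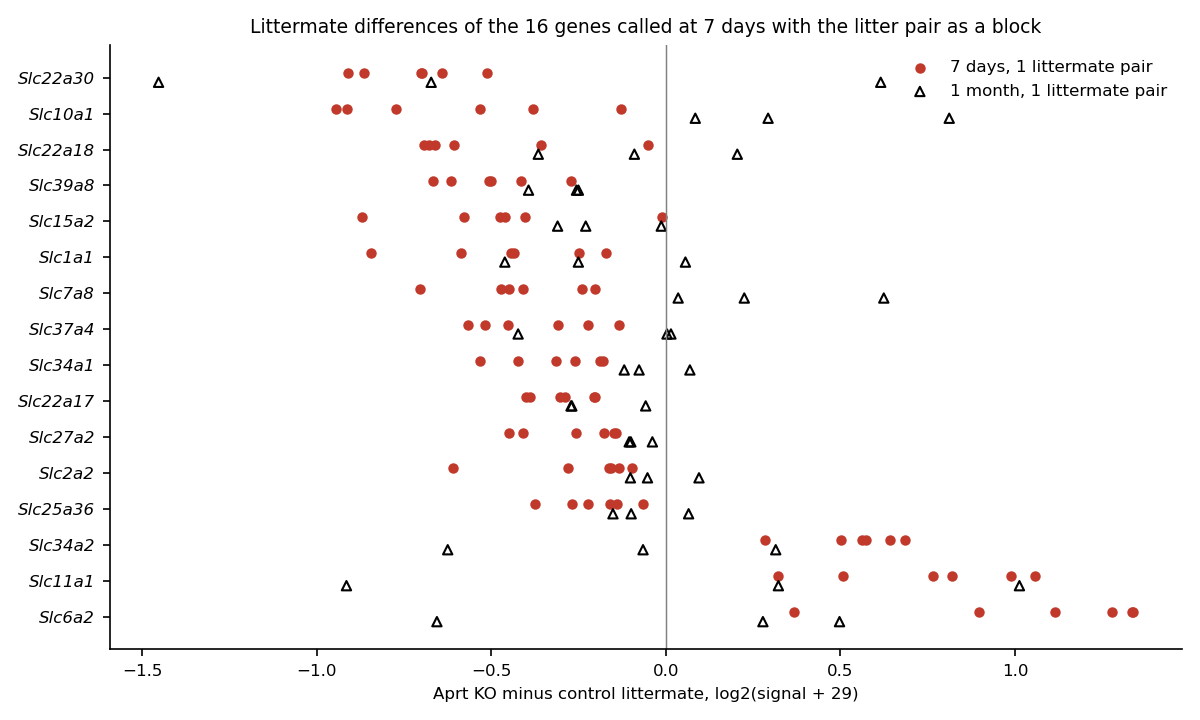
Log2 difference between each Aprt KO mouse and its control littermate (x axis, log2 of signal + 29) for the 16 solute carriers called at 7 days with the litter pair as a block (y axis). Filled circles are the 6 pairs at 7 days and open triangles the 3 pairs at 1 month. All 7-day pairs of a gene lie on 1 side of 0, and the 1-month pairs of Slc10a1 and Slc7a8 lie on the other side.

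Among apical carriers, Slc34a1 was lower in KO kidneys at 7 days, with 4241 at the lowest, 6690.2 at the median and 7144 at the highest, against 6147 at the lowest, 8059 at the median and 8585 at the highest in control kidneys. The groups overlap, since both mice of the fourth pair were the lowest of their group, and the adjusted p was 0.00219 with the block and 0.279 without. Slc1a1 had 183 at the lowest, 240.4 at the median and 327 at the highest in KO kidneys, against 276 at the lowest, 332 at the median and 451 at the highest in control kidneys (log2 difference -0.46, adjusted p = 0.00952 with and 0.117 without the block). Its second probe set, which is below the filter, had 0.14, and the mean over both had -0.16 without the block. The peptide carrier Slc15a2 had a log2 difference of -0.47 (adjusted p = 0.00542 with and 0.105 without). On the basolateral side and inside the cell, the glucose transporter Slc2a2 (-0.24), the amino acid exchanger Slc7a8 (-0.41), the acyl-CoA synthetase Slc27a2 (-0.26), the glucose 6-phosphate carrier Slc37a4 (-0.37) and the pyrimidine nucleotide carrier Slc25a36 (-0.20) were also lower with the block. Slc2a2 did not pass when any 1 of the 9 pairs was left out, nor with the pair as a random effect (adjusted p = 0.0955). Slc25a36 lost its call without 7-day pair 1, 2, 3, 5 or 6 and without 1-month pair 2. Of the genes described below, Slc22a30 and Slc11a1 lost theirs without 7-day pair 1, 2, 4, 5 or 6. Slc10a1 lost its call without 7-day pair 1, 2 or 4.

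The family Slc22 gave 3 of the 13 lower genes. Slc22a30 had 109 at the lowest, 161 at the median and 226 at the highest in KO kidneys, against 196 at the lowest, 296 at the median and 334 at the highest in control kidneys, with a log2 difference of -0.72 (SE 0.20) and an adjusted p of 0.0297 with and 0.0629 without the block. Slc22a18 had -0.51 (adjusted p = 0.00378 with and 0.0983 without) and Slc22a17 -0.30 (adjusted p = 0.0073 and 0.363). The urate transporter Slc22a12, at 1437 to 2219.8 in KO and 1781 to 2745 in control kidneys, missed the threshold with the block (log2 difference -0.25, adjusted p = 0.0506), as did the fructose transporter Slc2a5 (-0.50, adjusted p = 0.0587). Slc39a8, the zinc and manganese importer, had the smallest p with the block, with 296 at the lowest, 409 at the median and 515 at the highest in KO kidneys, against 457 at the lowest, 588 at the median and 685 at the highest in control kidneys (log2 difference -0.50, adjusted p = 0.000528 with and 0.0636 without).

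Slc10a1 came nearest to passing without the block. Its signals were 96.1 at the lowest, 164 at the median and 191 at the highest in KO kidneys, against 204 at the lowest, 259 at the median and 289.9 at the highest in control kidneys, which do not overlap (log2 difference -0.61 (SE 0.16), adjusted p = 0.0501 without and 0.0157 with the block). The highest KO signal lay just under the lowest control signal. With the probe sets of the gene averaged the log2 difference was -0.27 (adjusted p = 0.384 without the block). At 1 month its littermate differences were 0.08, 0.29 and 0.81, all above 0.

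The 3 genes that were higher in KO kidneys with the block were Slc6a2, Slc11a1 and Slc34a2. Slc11a1, the phagocyte metal transporter, had 174 at the lowest, 225 at the median and 263 at the highest in KO kidneys, against 97 at the lowest, 111 at the median and 177 at the highest in control kidneys (log2 difference 0.74 (SE 0.20), adjusted p = 0.0396 with and 0.056 without the block). Beside it, all 7 measured myeloid markers were higher in 7-day KO kidneys. The summed signal of the 9 on the array was 6168 to 10621 in KO kidneys against 2166 to 3617 in control kidneys. The part of these markers in the Slc11a1 result was not tested. Slc6a2, the noradrenaline transporter of sympathetic nerves and adrenal medulla, had 111 at the lowest, 148 at the median and 439.8 at the highest in KO kidneys, against 34.5 at the lowest, 53.7 at the median and 223 at the highest in control kidneys (log2 difference 1.06 (SE 0.30), adjusted p = 0.00177 and 0.0689). Its second probe set, which is below the filter, went the other way by -0.23, and the mean over both had 0.41 (adjusted p = 0.628 without the block). The summed signal of the 5 adrenal cortex markers on the array varied between kidneys of both groups, 815 to 4166 in KO and 634 to 4653 in control kidneys. Of these markers 4 were measured, and none of the 4 was called. Slc34a2 had a mean signal of 318 ± 135 in KO and 208 ± 87.6 in control kidneys (SD, n = 6 each, log2 difference 0.54, adjusted p = 0.0106 with and 0.266 without the block).

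Markers of tubules moved with the 13 lower genes. Over all genes 3.86% were lower and 4.84% higher in 7-day KO kidneys with the block, and 0.679% were lower without it. Of 10 proximal tubule markers 5 were lower and 1 higher in 7-day KO kidneys with the block, and their summed signal was 31365 to 55972.5 in KO and 39521 to 69612 in control kidneys. Of 7 markers of the loop of Henle and distal tubule 3 were lower without the block and 4 with it, and none was higher. Their summed signal did not overlap between the groups, at 7308 to 10248 in KO and 10976 to 14071 in control kidneys. Of the 18 measured partner genes 6 were lower and none higher with the block, and 1 passed without it, the brush border peptidase Mep1b (-0.99, adjusted p = 1.49e-05). The partner list shares Aqp1, Lrp2, Cubn and Ggt1 with the proximal tubule markers, so the counts of these lists are not separate. The part of these markers in the Slc differences was not tested.

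At 1 month none of the 102 Slc genes passed between KO and control kidneys, with or without the litter pair as a block. Over all genes 0.313% passed without and 1.38% with it. At an unadjusted p under 0.05 there were 2 Slc genes without the block, among 265 of all genes, and 13 with it, among 675. The groups of 3 did not overlap in 4 Slc genes. Slc23a2, a vitamin C transporter, and Slc25a20, the carnitine-acylcarnitine carrier, were higher in KO kidneys (1.96%, against 4.2% of all genes), and Slc25a4 and Slc44a4 were lower (1.96%, against 1.95%). KO kidneys were higher than their littermates in all 3 pairs in 14 Slc genes and lower in all 3 in 14 others (13.7% each, against 16.1% and 13.9% of all genes). Slc34a1 had a log2 difference of -0.04 (SE 0.18) at 1 month, Slc22a12 0.20 (SE 0.19) and Slc27a2 -0.08 (SE 0.15). Slc9a8 had the smallest adjusted p without the block (-0.65 (SE 0.22), adjusted p = 0.499), and Slc29a1 with it. Slc29a1 had 562, 369 and 451 in KO kidneys, against 388, 217 and 314 in control kidneys. KO was higher in all 3 pairs by a log2 difference of 0.56 (SE 0.20), with an adjusted p of 0.564 without the block, 0.0857 with it and 0.0492 with the pair as a random effect. With the 4 doubtful arrays left out and the block kept, 1 gene passed, Slc9a8 (-1.04, adjusted p = 0.0268), and without the block none did.

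The difference of the genotype effect between the ages was tested directly, and no Slc gene passed (7 at an unadjusted p under 0.05, among 307 of all genes). With the litter pair as a block, which called 1.62% of all genes, 1 passed. It was Slc7a8, which exchanges neutral amino acids at the basolateral membrane, with signals of 999, 664 and 445 in 1-month KO kidneys, against 851, 421 and 434 in 1-month control kidneys. At 7 days it had 263 at the lowest, 310.4 at the median and 469 at the highest in KO kidneys, against 360.3 at the lowest, 445 at the median and 609 at the highest in control kidneys. The KO minus control difference was 0.29 at 1 month and -0.41 at 7 days, and the 2 differed by 0.71 with the block (adjusted p = 0.0441) and by the same amount without it (adjusted p = 0.598). With the block but without the 4 arrays whose Aprt signal went against the label, or without the fourth 7-day pair, none passed. With the pair as a random effect Slc7a8 and Slc29a1 passed (adjusted p = 0.0346 each), and so did Slc10a1 (adjusted p = 0.018).

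The sexes were compared because both ages held male and female mice, a comparison added after seeing the data. At 7 days, with 6 males and 6 females, no Slc gene passed and 0.0522% of all genes did. At an unadjusted p under 0.05 there were 10 Slc genes, among 406 of all genes. At 1 month, with 4 males and 2 females, 10 Slc genes passed, 5 higher and 5 lower in males (4.9% each, against 1.74% and 1.03% of all genes, 2.77% in all). The 2 females at 1 month are littermates, a KO and its control, so that sex and litter cannot be told apart at that age.

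Slc22a30 had by far the largest difference. Its signals were 2321 and 1307 in KO males and 115 in the KO female, and 3716 and 3630 in control males and 65.0 in the control female. All 4 males lay far above both females, and the log2 difference, male minus female, was 4.46 (SE 0.30) (adjusted p = 1.41e-07). At 7 days its signals were 109 to 226 in KO and 196 to 334 in control kidneys with no call between the sexes, and the change of the sex difference with age, 4.70 (SE 0.37), passed (adjusted p = 1.2e-06). Its probe set, 103702_i_at, belongs to a family of close relatives, and how far their RNA adds to it was not tested.

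The potassium-chloride cotransporter Slc12a7 had 1411 and 1463 in KO males and 813 in the KO female, and 1637 and 1398 in control males and 798 in the control female (log2 difference 0.85 (SE 0.13), adjusted p = 0.00131). The sodium-proton exchanger Slc9a8 (1.13 (SE 0.24)), the organic cation transporter Slc22a2 (0.88 (SE 0.23)) and the neutral amino acid transporter Slc6a15 (1.19 (SE 0.24)) were also higher in males. The folate carrier Slc19a1 had 1382 and 1418 in KO males and 2244 in the KO female, and 1240.0 and 1238 in control males and 2022 in the control female (log2 difference -0.68 (SE 0.14), adjusted p = 0.0114). Slc6a18 (-0.78 (SE 0.19)), Slc7a7 (-0.99 (SE 0.26)), Slc7a8 (-0.90 (SE 0.23)), all amino acid carriers, and Slc23a3 (-0.81 (SE 0.20)), of the vitamin C transporter family, were lower in males too. The sex difference itself changed with age in 5 genes (4.9%, against 1.58% of all genes), Slc22a30, Slc6a15, Slc12a7, Slc19a1 and Slc6a18.

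**Figure D5:**
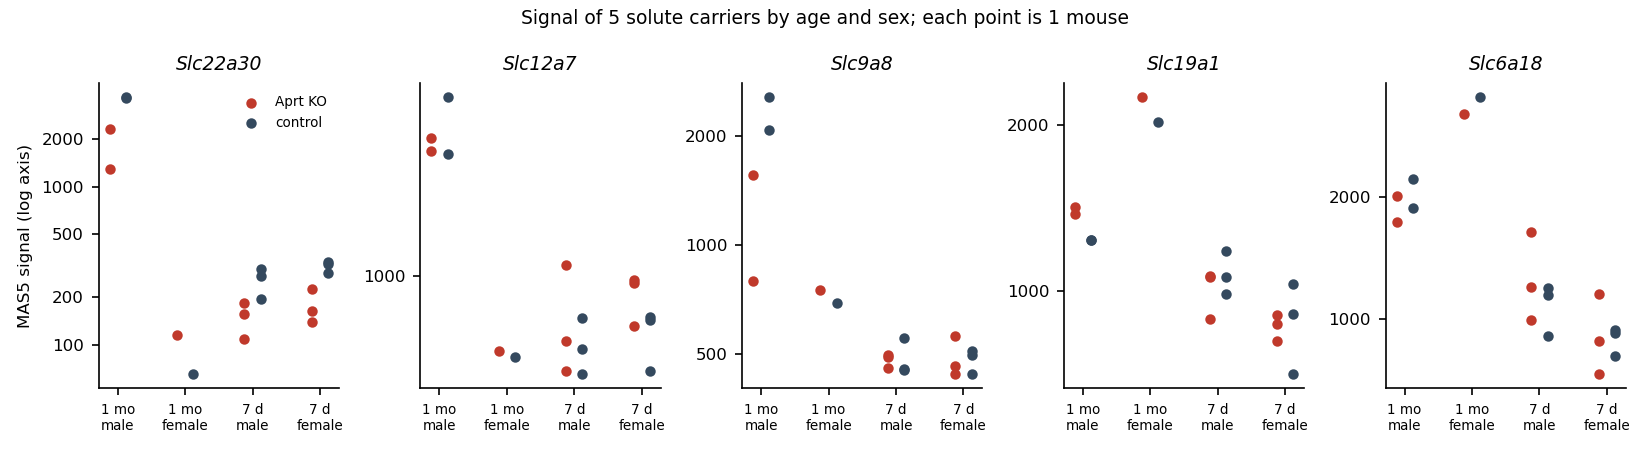
MAS5 signal on a log axis for 5 solute carriers by age and sex, with 1 point per mouse, Aprt KO in red and control in dark blue. Slc22a30 shows the 4 males at 1 month, at 1307 to 3716, above the 2 females at 65.0 and 115, and no such gap at 7 days.

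These calls leaned on the 2 female arrays. With the litter pair as a random effect 2 of the 10 remained, Slc22a30 (adjusted p = 0.000125) and Slc12a7 (adjusted p = 0.0482). Without the 4 arrays whose Aprt signal went against the label, which takes away the KO female, 3 Slc genes passed, Slc22a30, Slc6a15 and Slc9a8, and without the control female 1 did. In males alone, where no female array enters, 5 of the 10 genes lost an age call. They were Slc19a1 (0.20) and Slc7a7 (0.57) in control mice and Slc6a18 (0.57), Slc7a8 (0.59) and Slc23a3 (0.56) in KO mice.

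The 32 Slc genes below the filter entered only the fits with no filter on signal and are not described one by one. They are Slc1a2, Slc1a5, Slc1a6, Slc2a3, Slc4a5, Slc4a8, Slc6a3, Slc6a12, Slc7a1, Slc7a2, Slc7a3, Slc7a6, Slc7a11, Slc10a2, Slc10a6, Slc12a5, Slc16a1, Slc16a8, Slc18a3, Slc22a4, Slc22a21, Slc25a3, Slc25a14, Slc25a45, Slc25a48, Slc25a53, Slc26a2, Slc27a5, Slc29a2, Slc32a1, Slc33a1 and Slc35a4. In 28 of the 134 genes there were several probe sets, and in 10 several passed the filter. Their direction with age differed within 1 gene, the iron transporter Slc11a2, which was not called. With the probe sets of a gene averaged, the age calls of Slc2a4 in control mice (0.43) and of Slc25a5 (0.32) and Slc44a4 (0.34) in KO mice were lost. Others kept their call with a difference more than 1.5 times smaller, as Slc38a2 (-0.36 in KO and -0.32 in control mice), Slc19a1 (0.40 and 0.35), Slc2a4 in KO mice (0.69), Slc23a3 in KO mice (0.47), and Slc10a1 (-1.0) and Slc25a5 (0.48) in control mice. Several well-known renal carriers were not analysed here because no probe set carries their symbol alone, among them Slc5a2, Slc9a3, Slc22a8, Slc6a19 and Slc13a1.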

How the data were processed

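RNA of whole kidneys was hybridised to 18 single-colour Affymetrix arrays, 1 per mouse. The deposited intensity values are MAS5 signals on a linear scale, made with GCOS per the submitters' processing notes, with versions not given in the sources used here. The platform annotation gave 1 gene symbol to 10833 of 12488 probe sets, several to 396 and none to 1193, beside 66 control probe sets. From the deposited signals, log2(signal + 29) was computed, 29 being the 20th percentile, and the brightest probe set stood for a gene.

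Differences were tested over 5744 genes by linear models in limma (version 3.58.1, R version 4.3.3, eBayes with a mean-variance trend), with a term for each group, a sex term for each age, 12 residual degrees of freedom and Benjamini-Hochberg adjustment. The fit without the litter pair was tested on simulated data that held no correlation between littermates. The fits with the pair were not tested in that way. Fold changes are on the log2(signal + 29) scale and understate those of dim genes. The number of arrays limits the precision. The labels pair each KO mouse with a littermate: deviations from the group means of littermates correlated at 0.239 to 0.673 in 9 pairs, and 12 of 18 arrays correlated best with their littermate.

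Genes were named by rule (genotype calls, the 10 largest rises and falls with age in control mice, the leading genes of families with 3 or more measured genes, and a list of renal carriers). Members and lists were chosen with earlier results of these data known. Chosen after seeing these values were the naming of genes called with the pair block or between the sexes, the sex comparison, the GTTAAT word and the fits without doubtful arrays or with males only. Other scalings, pseudocounts, filters, probe-set rules and left-out arrays were also tried. Figures were drawn with matplotlib 3.10.9.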

Additional observations from a re-analysis of the deposited data

Results flagged for a closer look

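In 9 of the 112 groups of 6 mice examined, that is 7-day KO or 7-day control mice for 1 gene, the lowest or highest mouse stood apart from the rest by Dixon's criterion. Chance gives about 1 in 20 such groups, or 5.6 here. The fourth 7-day pair, whose arrays have the narrow range of signals, holds 5 of the 9. Its KO mouse had the lowest KO signal of the phosphate cotransporter Slc34a1 (4241) and of the bicarbonate cotransporter Slc4a4 (373). Its control mouse had the lowest control signal of Slc34a1 (6147), Slc4a4 (321) and the choline-like transporter Slc44a4 (1105). The third 7-day pair holds 3 more. Its KO mouse had the lowest KO signal of the organic anion transporter Slc22a6 (821), and its control mouse the lowest control signal of the peptide transporter Slc15a2 (931) and of Slc22a18 (760.0). The last is a high value, that of the inositol cotransporter Slc5a11 in the KO mouse of the first 7-day pair (166). None of these was weighed further, and the part of the narrow signal range in them was not tested.

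The effect of the genotype differed between the ages in the amino acid exchanger Slc7a8, by 0.71 on the log2 scale with the litter pair as a block (adjusted p = 0.0441 by limma). Without the block the same difference had an adjusted p of 0.598, and with the block but without the 4 arrays whose Aprt signal went against the label no Slc gene passed.

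The difference between males and females changed with age in 5 genes by limma. The log2 change, 1 month minus 7 days of male minus female, was 4.70 for Slc22a30, 1.44 for Slc6a15 and 0.93 for Slc12a7, and -1.14 for Slc6a18 and -0.93 for Slc19a1. Adjusted p ran from 1.2e-06 for Slc22a30 to 0.0156 for Slc6a18. With the litter pair as a random effect Slc22a30 alone of the 5 passed (adjusted p = 0.000896). Both females at 1 month are littermates, so sex and litter cannot be told apart there.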

How the results depend on the processing

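The counts of Slc genes changed with age ran from 46 to 65 in KO and 46 to 64 in control mice over all alternatives, with 52 to 61 and 48 to 61 when 1 array was left out, and no named gene reversed. With no filter on signal, 64 of the 134 genes passed in KO and 61 in control mice. Among named genes called with age, 30 of 46 in KO and 28 of 44 in control mice kept their call under every alternative run, up to 32. Without the 1-month control replicate 1, the control calls of Slc11a1 (-0.37), Slc23a2 (-0.37), Slc25a36 (0.35), Slc39a8 (0.54) and Slc7a7 (0.66) were lost. Without replicate 2 those of Slc12a4 (-0.39), Slc23a2 (-0.28), Slc38a4 (-0.33), Slc39a8 (0.51) and Slc4a3 (-0.51) were lost, and without replicate 3 those of Slc30a9 (0.47), Slc39a7 (-0.39), Slc39a8 (0.36) and Slc4a3 (-0.62). Without the 1-month KO replicate 1, the KO calls of Slc12a2 (-0.49), Slc2a1 (0.66), Slc34a2 (-0.74) and Slc5a1 (0.40) were lost, without replicate 2 those of Slc12a2 (-0.36) and Slc29a1 (-0.49), and without replicate 3 those of Slc12a7 (0.32), Slc30a9 (0.50) and Slc5a1 (0.36). Leaving out 1 array at 7 days ended the control call of Slc23a2 (without replicate 2 or 4), Slc38a4 (1 or 4) and Slc39a8 (1 or 2) and the KO call of Slc12a2 (3 or 4). Without the 4 arrays whose Aprt signal went against the label, the control calls of Slc11a1 (-0.66), Slc30a9 (0.59), Slc38a4 (-0.53), Slc39a7 (-0.48), Slc39a8 (0.39) and Slc4a3 (-0.60) and the KO calls of Slc12a2 (-0.43), Slc34a2 (-0.59), Slc4a3 (-0.70) and Slc5a1 (0.42) were lost. In males alone those of Slc11a1, Slc15a2, Slc19a1, Slc23a2, Slc25a36, Slc44a2 and Slc7a7 in control mice and of Slc10a1, Slc12a2, Slc23a3, Slc2a1, Slc5a1, Slc6a18 and Slc7a8 in KO mice were lost, and with the pair as a random block those of Slc11a1 and Slc38a4 in control mice. Scaling to a common median raised the share of rises among called Slc genes to 87.7% in KO and 90.6% in control mice, against 79.7% and 80% as deposited. Over all genes it gave 62.8% and 60.7%, against 37.1% and 35.8%. Quantile normalization gave 82.3% and 88.7% for Slc genes.

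At 7 days, where none passed between the genotypes, the replicate block of litter pairs gave 16 Slc genes, and 16 also without the pair of narrow signal range. A random block gave 20, a pseudocount at the 40th percentile 2, quantile normalization 3 and the mean over probe sets 1. The arrays of the 2 groups alone gave 4. The fit without the 4 arrays whose Aprt signal went against the label gave 1, also with the replicate block. Over all genes quantile normalization called 154 higher and 49 lower. The fit without the narrow pair gave 1, and leaving out 1 array 0 to 3, with 3 without 7-day control replicate 3 (Slc10a1, Slc15a2 and Slc22a18) or replicate 4 (Slc11a1, Slc22a30 and Slc6a2). At 1 month the random block gave 1, the replicate block without the 4 arrays 1, and leaving out 1 array 0 to 0. For the difference between ages the replicate block gave 1, the random block 3 and leaving out 1 array 0 to 0.

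Between the sexes at 1 month the random block gave 2 Slc genes, the fit without the 4 arrays 3 and leaving out 1 array 1 to 11. The 1 is without the 1-month control replicate 1, the control female, and the 1-month KO replicates 1 and 2 and control replicate 3 gave 4, 6 and 5. For its change with age the counts were 1 with the random block, 8 with a common median, 2 without the 4 arrays and 1 to 7 with 1 array left out, again 1 without the control female. At 7 days leaving out 1 array gave 0 to 0. The cause of these changes was not tested, except that fewer arrays enter where some are left out. The fixed block gives no value for age, since each pair is of 1 age.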
